A study of Macaca mulatta with 45 samples.

Results

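Transcript levels of 10 genes of the insulin pathway, from the receptor substrates IRS1 and IRS2 to the kinase GSK3B, were followed in the fat of rhesus monkeys. The genes were taken from a fixed list of symbols, and every probe of those symbols was read, which gave 23 of the 47231 probes used. The arrays were Illumina HT-12 V4 bead arrays, which carry human probes. A monkey transcript that differs from its human probe binds it less well, so levels were compared between arrays for a gene and never between genes.

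Insulin binding activates its receptor, which phosphorylates the substrate proteins IRS1 and IRS2. These recruit phosphoinositide 3-kinase, whose lipid product brings PDPK1 and AKT together at the membrane so that PDPK1 switches AKT on. In fat cells active AKT promotes glucose uptake and restrains GSK3B and FOXO1 by phosphorylation, while GRB14 and the phosphatase PTPN1 hold the receptor back. Much of this control acts on proteins, which the arrays did not measure.

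The monkeys were adult males aged 7 to 13 years. Before the study all ate a monkey chow. Afterwards 4 remained on a standard diet (SD) with 13% of energy from fat and under 5% sucrose by weight, with a placebo treat. A second group of 10 received a diet high in fat and sucrose (HFS, 42% of energy from fat and about 27% sucrose by weight) with the same placebo. The other 10 animals ate HFS with resveratrol (HFS+R), a polyphenol made by plants, in their treats. The daily dose was 80 mg for the initial year and 480 mg for the year after it. Subcutaneous fat was collected at 0 months, before the diets (4 SD, 10 HFS and 10 HFS+R arrays), and at 24 months (2 SD, 5 HFS and 4 HFS+R arrays). Visceral fat was collected only at 24 months (2 SD, 4 HFS and 4 HFS+R arrays). Assignment to the diets was quasi-random. By its title the series concerns insulin signalling and inflammation in fat under this diet.

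Between 14386 and 18673 probes were detected per array. The subcutaneous arrays fell into a set of 19 with median raw intensities of 48.47 to 59 (set A) and a set of 16 with medians of 77.8 to 97.3 (set B), which also differed in number format. The labels name no batch. Set A held every subcutaneous array of 24 months and 8 of baseline, and set B the other 16 of baseline. Comparisons over time were therefore repeated within set A. The 10 visceral arrays had the number format of set B and medians of 55.5 to 62.2. At 24 months every depot comparison thus set arrays of that format against arrays of set A, and depot and array set cannot be told apart. Of 10 adipocyte markers the probe of ADIPOQ was above background on no subcutaneous array, and the other 9 were detected on at least 1 array of every group.

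Values below are log2 normalized intensities, with SD over arrays. Changes are differences on the same log2 scale with their standard errors, and p-values are two-sided from limma, adjusted over all genes. A gene passed at an adjusted p under 0.05. Of the 10 genes 9 were measured in each fit. AKT2, a main AKT form of fat cells, had 1 probe (ILMN_1743347), above background on 1 of 45 arrays, and was not tested. The plot of the 9 measured genes by group shows each array.

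**Figure D1:**
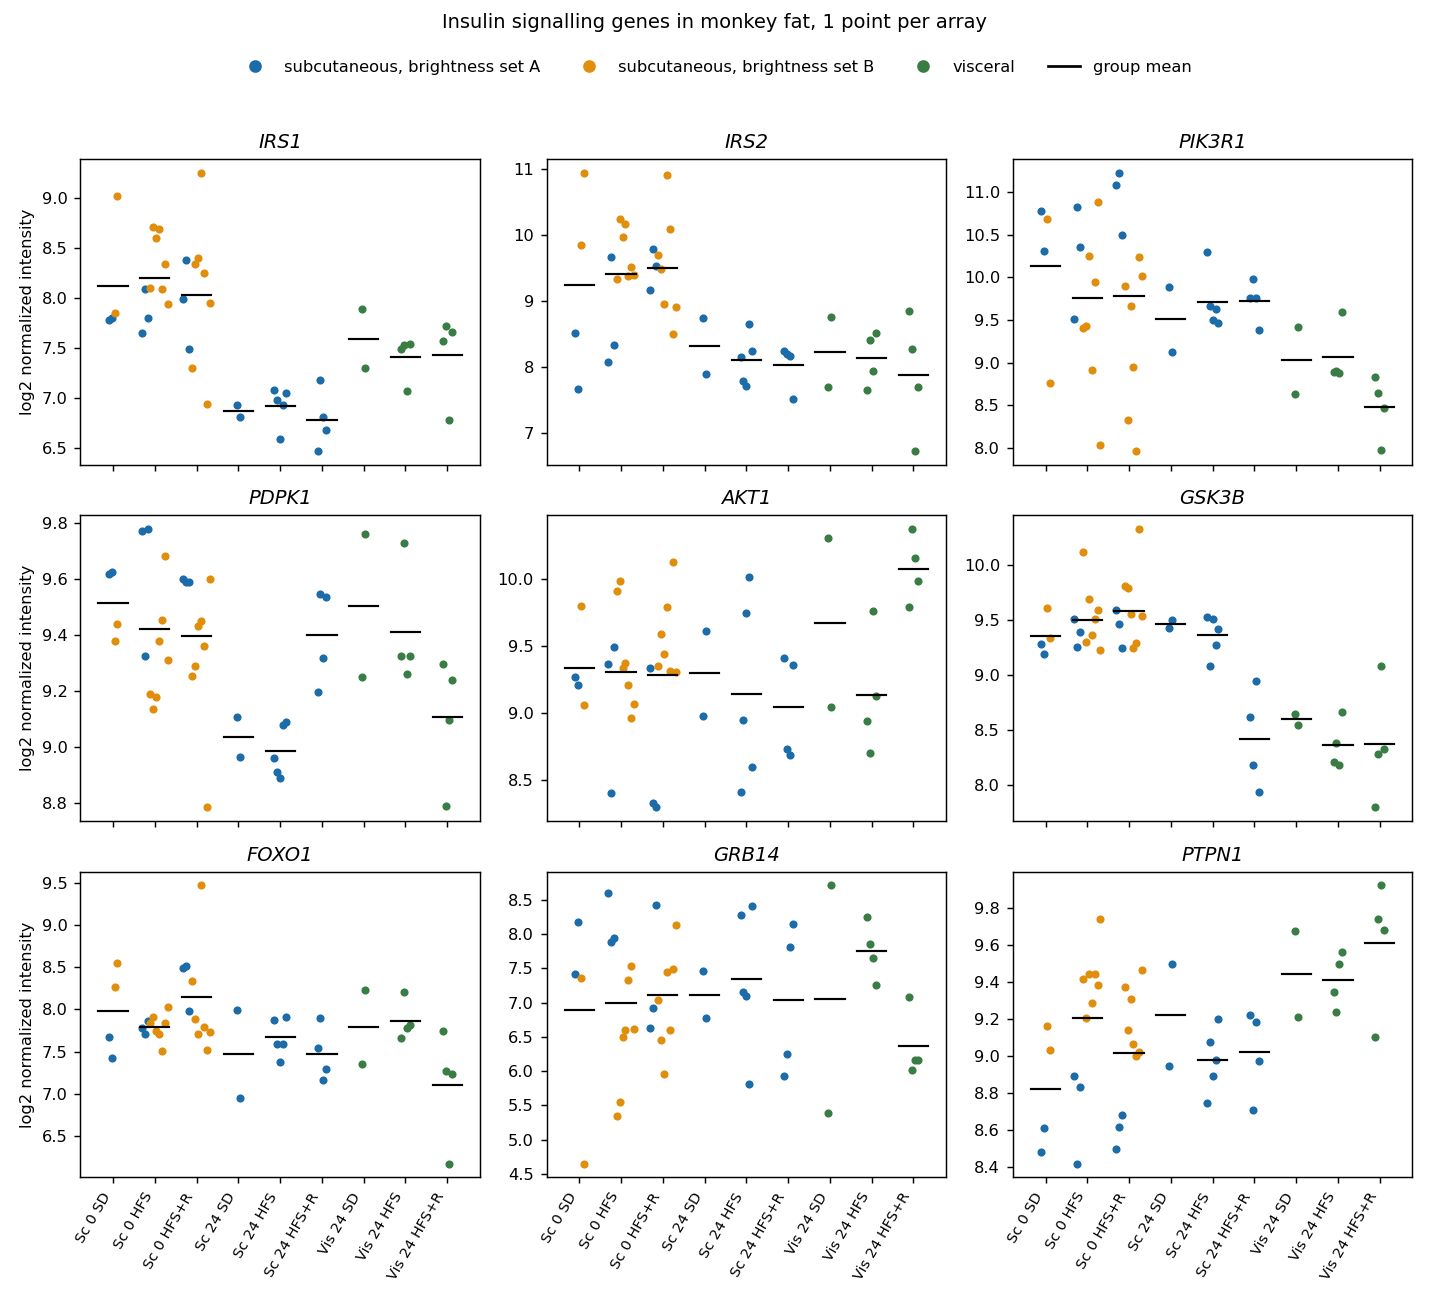
Each panel shows 1 gene as log2 normalized intensity on the vertical axis, with 1 point per array, a line at the group mean, and groups by depot (Sc subcutaneous, Vis visceral), month and diet on the horizontal axis. GSK3B lay at 7.94 to 8.94 in subcutaneous HFS+R fat at 24 months and at 9.08 to 9.52 in HFS fat, and IRS1 was lower in every 24-month subcutaneous group than in the baseline group of the same diet by its mean.

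IRS1, the substrate that couples the receptor to phosphoinositide 3-kinase in fat cells, was lower after 24 months in subcutaneous fat. In the HFS group its level (ILMN_1759232) ranged from 7.65 to 8.71 at baseline, with a median of 8.10, and was 7.08, 6.98, 6.59, 6.93 and 7.05 at 24 months. In the HFS+R group it ranged from 6.94 to 9.25 at baseline, with a median of 8.12, and was 6.47, 7.18, 6.81 and 6.68 at 24 months. The HFS groups did not overlap, while the HFS+R groups overlapped through the baseline array at 6.94. In the SD group the baseline arrays lay between 7.78 and 9.02 and both 24-month arrays lay below them, at 6.93 and 6.81.

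IRS1 fell by 1.28 ± 0.26 (adjusted p = 0.0168 in limma) in the HFS group, a level 2.42-fold lower. It fell by 1.25 ± 0.28 (adjusted p = 0.00307 in limma) in the HFS+R group. In the SD group the change had a similar size, -1.25 ± 0.41, and did not pass (adjusted p = 0.422 in limma). In the HFS group 1 of 9 members passed downward, beside 1.01% of all genes in either direction (0.668% upward and 0.338% downward). In the HFS+R group 3 of 9 passed downward (IRS1, IRS2 and GSK3B), beside 11.4% of all genes (6.92% upward and 4.45% downward). In the SD group 0 of 9 passed, beside 0% of all genes, and 2 of 9 had an unadjusted p under 0.05 in limma, beside 7.86%. The difference between the HFS+R and HFS changes in IRS1 was 0.03 ± 0.38 (adjusted p = 0.995 in limma). Per the column headers, 11 animals had arrays at both times, and IRS1 was lower at 24 months in 11 of 11, by differences of -1.53 to -0.27. Within array set A the IRS1 change was -0.92 ± 0.22 (adjusted p = 0.0754 in limma) in the HFS group and -1.17 ± 0.23 (adjusted p = 0.0174 in limma) in the HFS+R group. With animal as a fixed term the change was -1.02 ± 0.20 (adjusted p = 0.0634 in limma) in the HFS group and -0.92 ± 0.22 (adjusted p = 0.028 in limma) in the HFS+R group. The pass in the HFS group was thus lost in both fits, with the direction kept. It was also lost without HFS replicate 3 of 24 months (-1.19 ± 0.28, adjusted p = 0.0602 in limma). In the HFS+R group the pass was lost in 3 of 18 alternative settings. These were median scaling of the arrays (-0.86 ± 0.42, adjusted p = 0.21 in limma), the number of probes detected as a covariate (-1.43 ± 0.38, adjusted p = 0.0546 in limma) and the deposited z scores (adjusted p = 0.0595 in limma). The 18 settings also held the looser threshold of 0.1, at which no pass could be lost, and probe-choice settings that read the same single IRS1 probe.

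IRS2, the second substrate, moved over time in the same direction in the HFS+R group. Its level (ILMN_2083469) there ranged from 8.50 to 10.91 at baseline, with a median of 9.50, and was 8.24, 8.19, 8.16 and 7.51 at 24 months. The 4 later arrays all lay below the lowest baseline array. IRS2 fell by 1.47 ± 0.42 (adjusted p = 0.0195 in limma), and within set A the change was -1.46 ± 0.36 (adjusted p = 0.0417 in limma). With animal as a fixed term it was -1.22 ± 0.25 (adjusted p = 0.0152 in limma) and with the array set as a term -0.87 ± 0.42 (adjusted p = 0.236 in limma). Without HFS+R replicate 4 of 24 months it was -1.30 ± 0.47 (adjusted p = 0.108 in limma). With the number of probes detected as a covariate it was -0.83 ± 0.55 (adjusted p = 0.494 in limma).

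In the HFS group IRS2 ranged from 8.07 to 10.23 at baseline and was 8.15, 7.78, 7.72, 8.65 and 8.24 at 24 months. The groups overlapped, and the change of -1.29 ± 0.39 did not pass (adjusted p = 0.0905 in limma), though it did with array weights (-1.28) and with median scaling (-1.86). In the SD group the mean change was -0.93 ± 0.62 (adjusted p = 0.743 in limma). The 2 SD animals with arrays at both times nevertheless had IRS2 levels 0.22 and 0.23 higher at 24 months. Both had their baseline arrays in set A. SD baseline arrays had a mean of 8.09 ± 0.60 (SD, n = 2) in set A and 10.39 ± 0.77 (SD, n = 2) in set B. The baseline means were 8.69 ± 0.86 (SD, n = 3) and 9.71 ± 0.39 (SD, n = 7) in the HFS group. In the HFS+R group they were 9.49 ± 0.31 (SD, n = 3) and 9.50 ± 0.82 (SD, n = 7). The sets held different animals at baseline, so array set and animal cannot be told apart here. Over the 11 animals IRS2 was lower at 24 months in 8, with 4 of 4 in the HFS+R group and 4 of 5 in the HFS group.

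**Figure D2:**
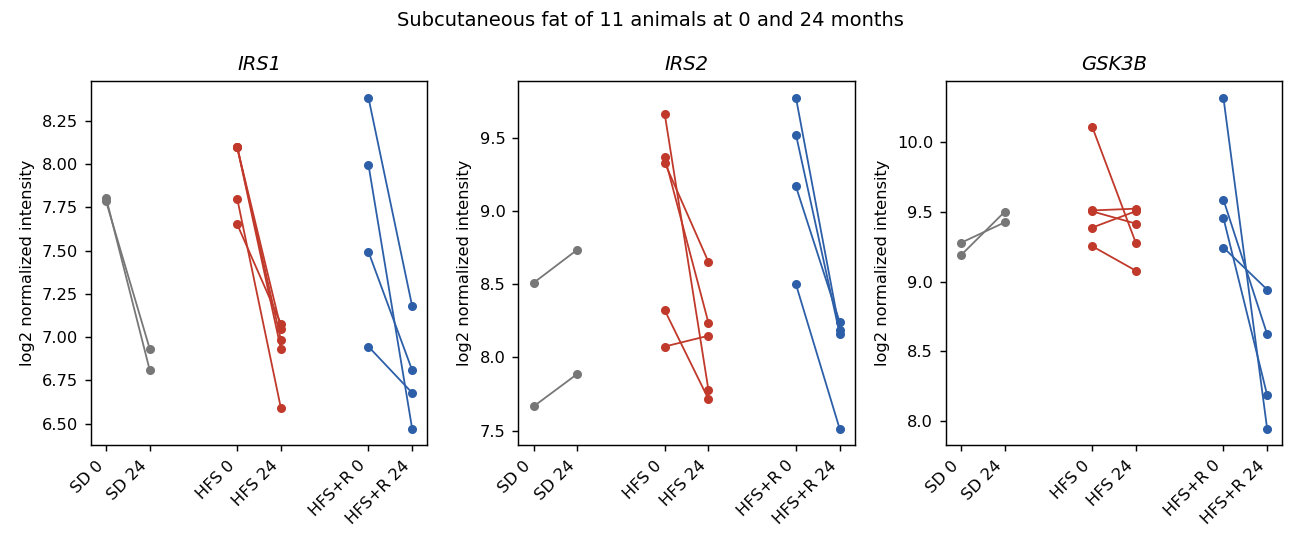
Lines join the subcutaneous arrays of 1 animal at 0 and 24 months for IRS1, IRS2 and GSK3B, with log2 normalized intensity on the vertical axis and diet and month on the horizontal axis. IRS1 was lower at 24 months in 11 of 11 animals, IRS2 in 8 and GSK3B in 7, among them 4 of 4 in the HFS+R group for each gene.

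Markers of other cells differed over the same period. Over all genes 14.7% in the HFS group, 26.5% in the HFS+R group and 7.86% in the SD group had an unadjusted p under 0.05 in limma over time. The shares that passed were 1.01%, 11.4% and 0% in that order. Of 10 measured macrophage markers 10 had a change above 0 in the HFS group and 10 in the HFS+R group, with 0 and 2 passing and 7 in each at an unadjusted p under 0.05 in limma. In the SD group 10 of 10 also lay above 0, with 0 passing and 1 at an unadjusted p under 0.05 in limma. Their median changes were 0.97 on HFS, 1.33 on HFS+R and 1.08 on SD. Their summed level ran from 3377 to 22758 at HFS baseline and from 14805 to 18637 at 24 months, and from 1926 to 16687 and from 13962 to 21199 in the HFS+R group. Of 9 adipocyte markers tested over time 1 passed in the HFS+R group, upward, and 0 in the HFS group, where 2 had an unadjusted p under 0.05 in limma. In the SD group 0 passed and 2 had an unadjusted p under 0.05 in limma. Adipocyte changes above 0 numbered 3 of 9 in the HFS+R group, 5 of 9 in the HFS group and 2 of 9 in the SD group. The median adipocyte changes were -0.12, 0.12 and -0.69 in that order. Of 7 fibroblast and preadipocyte markers 2 passed upward in the HFS+R group and 0 in the HFS group, where 1 had an unadjusted p under 0.05 in limma. Of 6 erythroid markers 0 passed on any diet, with 3 at an unadjusted p under 0.05 in limma in the HFS group, 3 in the HFS+R group and 4 in the SD group. Their median changes were -0.94, -0.83 and -1.37. The summed erythroid level ran from 63347 to 84881 at HFS baseline and from 42614 to 73020 at 24 months, and from 44729 to 86133 and from 21534 to 81017 in the HFS+R group. The part of these cell types in the IRS1, IRS2 and GSK3B changes over time was not tested. In bulk tissue fewer cells of a type and less RNA per cell cannot be told apart.

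Neither substrate passed between diets at one time. In subcutaneous fat at 24 months the HFS+R minus HFS difference was -0.14 ± 0.32 for IRS1 and -0.08 ± 0.48 for IRS2 (adjusted p = 0.929 and 0.972 in limma). In visceral fat it was 0.02 ± 0.26 for IRS1 and -0.25 ± 0.43 for IRS2 (adjusted p = 0.966 and 0.735 in limma). Visceral IRS1 lay between 6.78 and 7.89 over the 10 arrays of the 3 diets. For IRS1, visceral minus subcutaneous differences were 0.49 ± 0.31 on HFS and 0.65 ± 0.32 on HFS+R, and neither passed (adjusted p = 0.287 and 0.114 in limma). The HFS+R value passed with array weights and without visceral replicate 3 (0.87, adjusted p = 0.0487 in limma).

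PIK3R1 encodes the regulatory subunit through which phosphoinositide 3-kinase docks on the substrates. It had 5 probes, of which ILMN_1760303 and ILMN_2398235 were above background on all 45 arrays. By the first, the brighter, PIK3R1 lay at 8.89, 8.90, 8.88 and 9.60 in visceral HFS fat and at 8.83, 8.64, 7.98 and 8.47 in visceral HFS+R fat. These groups did not overlap, but the difference of -0.59 ± 0.26 did not pass (adjusted p = 0.205 in limma). The other bright probe differed by -0.92 ± 0.37 (adjusted p = 0.182 over all probes in limma).

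In subcutaneous fat these probes disagreed. At 24 months the HFS+R minus HFS difference in PIK3R1 was 0.01 ± 0.54 by the brighter probe and 0.76 ± 0.50 by the other (adjusted p = 0.995 and 0.538 in limma). Over time in the HFS+R group they gave -0.07 ± 0.48 and 0.85 ± 0.44 (adjusted p = 0.948 and 0.21 in limma). The baseline arrays of that group differed by array set, with a mean of 10.93 ± 0.38 (SD, n = 3) in set A and 9.29 ± 0.89 (SD, n = 7) in set B by the brighter probe. Within set A PIK3R1 was lower at 24 months by this probe, with a change of -1.22 ± 0.29 (adjusted p = 0.0415 in limma), and with animal as a fixed term the change was -1.04 ± 0.26 (adjusted p = 0.0336 in limma). By this probe it was lower in 4 of 4 HFS+R animals and in 9 of all 11. By the other probe the HFS+R arrays of set A overlapped, at 8.95, 9.06 and 8.74 at baseline and 8.89, 8.41, 8.65 and 8.78 at 24 months. The HFS+R animal of baseline replicate 9 was higher at 24 months by that probe, at 8.78 after 8.36. No fit within set A was run for that probe. Visceral minus subcutaneous differences in PIK3R1 on HFS+R were -1.24 ± 0.53 by the brighter probe (adjusted p = 0.0639 in limma) and -2.56 ± 0.51 by the other (adjusted p = 0.000121 over all probes in limma).

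PDPK1, the kinase that phosphorylates AKT in its activation loop, ran within a narrow range in subcutaneous fat by its brightest probe (ILMN_2387799). By that probe it was 8.96, 8.91, 8.89, 9.08 and 9.09 in HFS fat at 24 months, and 9.20, 9.55, 9.32 and 9.54 in HFS+R fat. The groups did not overlap and the HFS+R group was higher, yet the difference of 0.41 ± 0.16 did not pass (adjusted p = 0.2 in limma). By ILMN_1653793, also above background on all arrays, the groups overlapped. Levels by it ran from 6.25 to 7.22 on HFS and from 6.19 to 7.43 on HFS+R. By the brightest probe PDPK1 changed over time by -0.43 ± 0.13 in the HFS group (adjusted p = 0.0888 in limma) and by 0.00 ± 0.14 in the HFS+R group (adjusted p = 0.992 in limma). In the HFS group it was lower at 24 months in 5 of 5 animals. With the array set as a term the HFS change was -0.63 ± 0.13 and passed (adjusted p = 0.00433 in limma), and within set A it was -0.64 ± 0.15 (adjusted p = 0.0619 in limma). With animal as a random block it was -0.46 ± 0.12 and passed (adjusted p = 0.0324 in limma), and with animal as a fixed term it was -0.52 ± 0.18 and did not (adjusted p = 0.207 in limma).

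In visceral fat the HFS+R minus HFS difference in PDPK1 was -0.30 ± 0.19 (adjusted p = 0.34 in limma), opposite in sign to subcutaneous fat. The test of that difference between depots gave -0.72 ± 0.23 (adjusted p = 0.0789 in limma), and passed with array weights and without visceral HFS+R replicate 1 (-0.78). The second probe above background on all arrays, ILMN_1653793, went the other way in visceral fat. By that probe PDPK1 was 5.77, 5.68, 6.68 and 5.51 on HFS and 6.89, 6.71, 7.40 and 7.81 on HFS+R. The groups did not overlap, with a difference of 1.29 ± 0.35 (adjusted p = 0.11 over all probes in limma).

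AKT1, a kinase at the centre of the pathway, had 3 probes above background on all 45 arrays. By the brightest (ILMN_2410909) its visceral level was 8.94, 8.70, 9.76 and 9.13 on HFS and 9.79, 10.38, 10.16 and 9.99 on HFS+R, while the 2 SD arrays lay at 10.31 and 9.04. All HFS+R arrays lay above all HFS arrays, the closest by a narrow margin, and the SD arrays spanned both. The HFS+R minus HFS difference was 0.94 ± 0.30 (unadjusted p = 0.00895, adjusted p = 0.116 in limma), and with array weights 1.12 (adjusted p = 0.00632 in limma). In that comparison 4 of 9 members had an unadjusted p under 0.05 in limma (AKT1, PIK3R1, FOXO1 and GRB14), beside 23.7% of all genes, and 0 of 9 passed after adjustment, beside 0% of all genes. Against SD, 0 of 9 passed in visceral HFS fat and 0 of 9 in visceral HFS+R fat, beside 0.00858% of all genes in each, all upward. There 0 members had an unadjusted p under 0.05 in limma, beside 4.91% of all genes on HFS and 9.89% on HFS+R.

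The other AKT1 probes did not share 1 direction. ILMN_2388507 gave a visceral HFS+R minus HFS difference of 1.03 ± 0.27 and ILMN_1748661 gave -0.54 ± 0.25 (adjusted p = 0.109 and 0.235 over all probes in limma). In subcutaneous fat at 24 months AKT1 ranged from 8.41 to 10.02 on HFS and from 8.68 to 9.41 on HFS+R, with a difference of -0.10 ± 0.34 (adjusted p = 0.958 in limma). Visceral minus subcutaneous AKT1 on HFS+R was 1.03 ± 0.35 and passed (adjusted p = 0.019 in limma). On that diet 2 of 9 members passed upward (AKT1 and PTPN1), where 35.8% of all genes passed, 20.1% upward and 15.8% downward. The AKT1 call was lost without subcutaneous replicate 2 (0.93), without subcutaneous replicate 3 (0.91) and without visceral replicate 2 (0.93). It was also lost with the mean of the probes (0.52 ± 0.24, adjusted p = 0.0888 in limma) and with median scaling (0.96 ± 0.50, adjusted p = 0.154 in limma). By ILMN_1748661 the AKT1 difference was -0.87 ± 0.28 (adjusted p = 0.015 over all probes in limma), the opposite sign. On HFS the depot difference was -0.01 ± 0.33 by the brightest probe (adjusted p = 0.989 in limma).

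GSK3B, the kinase that holds glycogen synthase inactive until AKT phosphorylates it, was the member with a difference between diets that passed. It had 1 probe (ILMN_1779376), above background on all arrays. In subcutaneous fat at 24 months its level was 8.62, 8.18, 8.94 and 7.94 on HFS+R, 9.52, 9.08, 9.51, 9.28 and 9.42 on HFS, and 9.43 and 9.50 on SD. Every HFS+R array lay below every array of the other 2 diets. The HFS+R minus HFS difference in GSK3B was -0.94 ± 0.20 (adjusted p = 0.00623 in limma), a level 1.91-fold lower. This was 1 of 9 members, beside 2.23% of all genes, 1.96% upward and 0.272% downward. Against SD the difference was -1.04 ± 0.26 (adjusted p = 0.0425 in limma), 1 of 9 members beside 0.791% of all genes, 0.742% upward and 0.0495% downward. Both comparisons share the HFS+R arrays. HFS and SD differed by -0.10 ± 0.25 (adjusted p = 1 in limma), and 0 of 9 members passed, beside 0% of all genes. There 0 members had an unadjusted p under 0.05 in limma, beside 1.89% of all genes.

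Before the diets the groups' GSK3B levels overlapped. The lowest, median and highest were 9.23, 9.45 and 10.11 in the HFS group and 9.24, 9.54 and 10.32 in the HFS+R group, and the 4 SD arrays ran from 9.19 to 9.61. Over 24 months GSK3B fell by 1.16 ± 0.18 in the HFS+R group (adjusted p = 2.57e-05 in limma), a level 2.24-fold lower. It changed by -0.13 ± 0.16 in the HFS group (adjusted p = 0.758 in limma) and by 0.11 ± 0.26 in the SD group (adjusted p = 0.946 in limma). The test of the difference between the HFS+R and HFS changes gave -1.03 ± 0.24 (adjusted p = 0.0278 in limma), again 1 of 9 members, beside 0.841% of all genes, 0.775% upward and 0.066% downward. GSK3B was lower at 24 months in 4 of 4 HFS+R animals (differences of -2.38 to -0.30), in 3 of 5 HFS animals and in 0 of 2 SD animals. Within set A the HFS+R change was -1.01 ± 0.21 (adjusted p = 0.0192 in limma). The difference between the HFS+R and HFS changes was -0.98 ± 0.29 within set A and -1.04 ± 0.35 with animal as a fixed term, and did not pass in either (adjusted p = 0.417 and 0.392 in limma). With median scaling it was -0.12 ± 0.42 (adjusted p = 0.846 in limma), and in all the call was lost in 6 of 18 alternative settings. It was also lost without HFS replicates 1 (-0.99), 3 (-0.99) or 5 (-1.01) and without HFS+R replicates 2 (-0.95) or 4 (-0.87) of 24 months.

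The number of probes detected was highest by mean in the HFS+R group, which had the lowest mean GSK3B of the 3 diets. It was 17766 ± 759 (SD, n = 4) on the HFS+R arrays at 24 months, 16012 ± 272 (SD, n = 5) on HFS and 16756 ± 624 (SD, n = 2) on SD. The HFS+R arrays with 18673 and 18113 probes detected had GSK3B at 7.94 and 8.18, and those with 17163 and 17117 had it at 8.94 and 8.62. SD replicate 2, with 17197 probes detected, had GSK3B at 9.50. The HFS arrays had 15712 to 16322 probes detected and GSK3B at 9.08 to 9.52, in no shared order. With the number of probes detected as a covariate the HFS+R minus HFS difference was -0.73 ± 0.23 (adjusted p = 0.274 in limma). Before normalization the raw intensities overlapped, running from 333 to 422 on HFS+R and from 259 to 567 on HFS.

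The call also depended on how arrays were scaled. Median scaling in place of quantile normalization left a GSK3B difference of -0.25 ± 0.35 (adjusted p = 0.679 in limma) and moved the median of all genes to 0.37, so that GSK3B stood -0.63 from that median. Without the HFS+R array with 18673 probes (replicate 4) the difference was -0.78 (adjusted p = 0.0705 in limma). Against SD the call was lost in 7 of 16 alternative settings. It was also lost without HFS+R replicates 2 (-0.96) or 4 (-0.88) and without SD replicates 1 (-1.08) or 2 (adjusted p = 0.345 in limma). Between HFS+R and HFS 0 of 9 adipocyte markers passed, 1 with an unadjusted p under 0.05 in limma, beside 13.3% of all genes. Their summed levels were 23491 to 38249 on HFS+R and 33473 to 42483 on HFS. Of 7 fibroblast and preadipocyte markers 1 passed, upward, beside 1.96% of all genes upward. The part of these cells in the GSK3B difference was not tested.

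**Figure D3:**
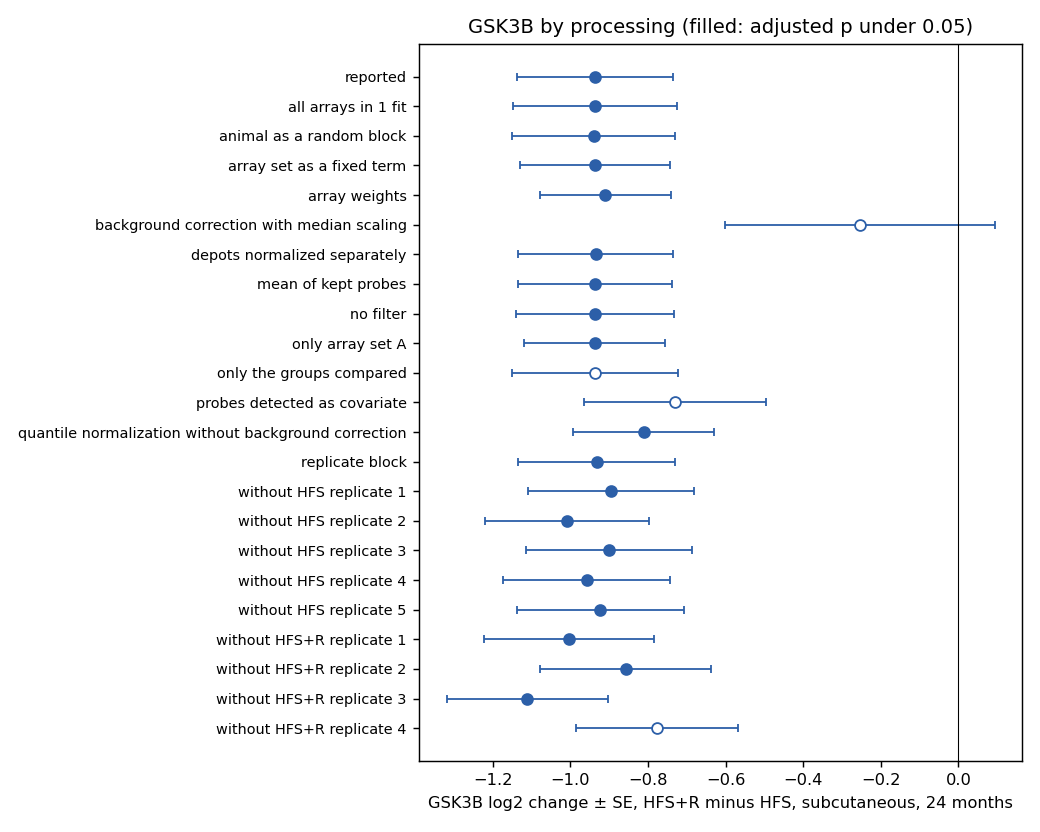
Points give the GSK3B log2 change with its standard error (horizontal axis), HFS+R minus HFS in subcutaneous fat at 24 months, for the reported fit, the alternative settings and each array left out (vertical axis). Filled points passed. The reported value is -0.94 and the value with median scaling is -0.25.

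In visceral fat the GSK3B level was 8.21, 8.38, 8.19 and 8.66 on HFS, 7.80, 8.28, 9.08 and 8.33 on HFS+R, and 8.65 and 8.55 on SD, and the groups overlapped. The HFS+R minus HFS difference was 0.01 ± 0.26 (adjusted p = 0.981 in limma). The test of visceral against subcutaneous differences gave 0.95 ± 0.31 and did not pass (adjusted p = 0.0789 in limma). It passed with array weights, without subcutaneous HFS+R replicate 3 (1.12) and without visceral HFS+R replicate 1 (1.14). In that test 0 of 9 members passed, 3 had an unadjusted p under 0.05 in limma, beside 18.7% of all genes, and 2.7% of all genes passed, 1.05% upward and 1.66% downward. On HFS all visceral arrays lay below all subcutaneous arrays, with a difference of -0.998 ± 0.21 (adjusted p = 0.000676 in limma). On that diet 1 of 9 members passed, beside 18.7% of all genes, 11.2% upward and 7.52% downward. With median scaling the difference was -0.56 ± 0.34 (adjusted p = 0.282 in limma). On HFS+R the depots overlapped, with a difference of -0.05 ± 0.22 (adjusted p = 0.896 in limma), and on SD it was -0.87 ± 0.31 (adjusted p = 0.141 in limma). On SD 0 of 9 members passed, beside 2.39% of all genes, 1.72% upward and 0.674% downward, and 1 member had an unadjusted p under 0.05 in limma, beside 15.8% of all genes. Ordered by mean, the subcutaneous groups other than HFS+R at 24 months ran from 9.35 to 9.58 with overlapping arrays. SD visceral fat followed at 8.60 ± 0.07 (SD, n = 2), then subcutaneous HFS+R at 24 months at 8.42 ± 0.45 (SD, n = 4), visceral HFS+R at 8.37 ± 0.53 (SD, n = 4) and visceral HFS at 8.36 ± 0.22 (SD, n = 4), and the arrays of these last 3 groups overlapped.

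FOXO1, the transcription factor that AKT keeps out of the nucleus, had 1 probe (ILMN_1738816). In visceral fat it was 7.66, 8.21, 7.78 and 7.82 on HFS and 7.75, 7.27, 6.17 and 7.24 on HFS+R. The groups overlapped through a single HFS+R array, and the difference of -0.76 ± 0.34 did not pass (adjusted p = 0.202 in limma). Over time in subcutaneous HFS+R fat the FOXO1 change was -0.67 ± 0.25 (adjusted p = 0.0756 in limma), and the level was lower in 4 of 4 animals. With animal as a random block it was -0.66 ± 0.22 and passed (adjusted p = 0.0425 in limma), and with animal as a fixed term it was -0.65 ± 0.21 and did not (adjusted p = 0.0882 in limma). In the HFS group it was -0.12 ± 0.23 (adjusted p = 0.853 in limma).

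GRB14, an adaptor that binds the active receptor and blocks its kinase, had 4 probes, of which ILMN_2413816 was above background on 44 of 45 arrays. In visceral fat GRB14 was 8.26, 7.85, 7.65 and 7.26 on HFS, 7.09, 6.02, 6.16 and 6.17 on HFS+R, and 5.38 and 8.71 on SD. The HFS and HFS+R arrays did not overlap, and the 2 SD arrays lay outside both. The HFS+R minus HFS difference was -1.40 ± 0.58 (unadjusted p = 0.0348, adjusted p = 0.181 in limma). It passed with only the 2 groups compared in the fit (adjusted p = 0.0439 in limma) and with array weights (-1.62, adjusted p = 0.0112 in limma). GRB14 varied widely within subcutaneous groups, from 5.81 to 8.42 on HFS and from 5.92 to 8.15 on HFS+R at 24 months, and the difference there was -0.32 ± 0.65 (adjusted p = 0.919 in limma).

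PTPN1, the phosphatase that removes the receptor's activating phosphates, had 1 probe (ILMN_1681591). At 24 months in subcutaneous fat it ran from 8.75 to 9.20 on HFS and from 8.71 to 9.22 on HFS+R, ranges that nearly coincide, with a difference of 0.04 ± 0.22 (adjusted p = 0.97 in limma). Visceral PTPN1 was 9.10, 9.74, 9.92 and 9.68 on HFS+R, and the visceral minus subcutaneous difference on that diet was 0.59 ± 0.23 (adjusted p = 0.0393 in limma). The visceral level was higher in 4 of 4 animals with both depots, 1 of them on HFS+R. This call was lost in 6 of 12 alternative settings, among them animal as a random block (0.55 ± 0.23, adjusted p = 0.0511 in limma). It was lost without subcutaneous replicates 2 (0.49) or 4 (0.57) and without visceral replicates 2 (0.55), 3 (0.49) or 4 (0.57). At baseline PTPN1 differed by array set, with HFS arrays at 8.42 to 8.89 in set A and 9.21 to 9.74 in set B, so changes over time in PTPN1 mixed both.

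Across the visceral comparison of HFS+R with HFS, the smooth muscle and pericyte markers lay higher, with a change above 0 in 7 of 7 tested. Of these 0 passed and 4 had an unadjusted p under 0.05 in limma, beside 23.7% of all genes. Their summed level ran from 17883 to 28099 on HFS and from 21918 to 49215 on HFS+R, and DES, CSPG4 and RGS5 were undetected on all HFS arrays, as was RGS5 on all HFS+R arrays. Other types also had markers at that unadjusted p. These were 5 of 7 fibroblast and preadipocyte, 4 of 7 endothelial, 3 of 10 adipocyte and 2 of 5 T and natural killer cell markers. Changes above 0 numbered 3, 4, 2 and 1 in that order. Of 10 macrophage markers 9 lay above 0, with 1 at that unadjusted p. Between depots 18.7% of all genes passed on HFS and 35.8% on HFS+R. In these comparisons mesothelial markers were higher in visceral fat, with 4 of 8 passing on HFS and 6 of 8 on HFS+R. Their summed level was 202 to 280 in subcutaneous and 472 to 3045 in visceral HFS fat, and 210 to 214 and 523 to 2907 in HFS+R fat, and MSLN, KRT19 and ITLN1 were undetected on all those subcutaneous arrays. T and natural killer cell markers were also higher in visceral fat, 3 of 5 passing on each of HFS and HFS+R, with summed levels of 221 to 421 in subcutaneous and 451 to 942 in visceral HFS fat. On HFS+R these were 187 to 312 and 349 to 570. Fibroblast and preadipocyte markers passed downward in 3 of 7 on each diet, with overlapping summed levels. Smooth muscle and pericyte markers passed upward in 3 of 8 on HFS+R and 0 of 8 on HFS, where 0 had an unadjusted p under 0.05 in limma. The part of these cells in the visceral and depot values of AKT1, GRB14, PTPN1 and GSK3B was not tested.

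**Figure D4:**
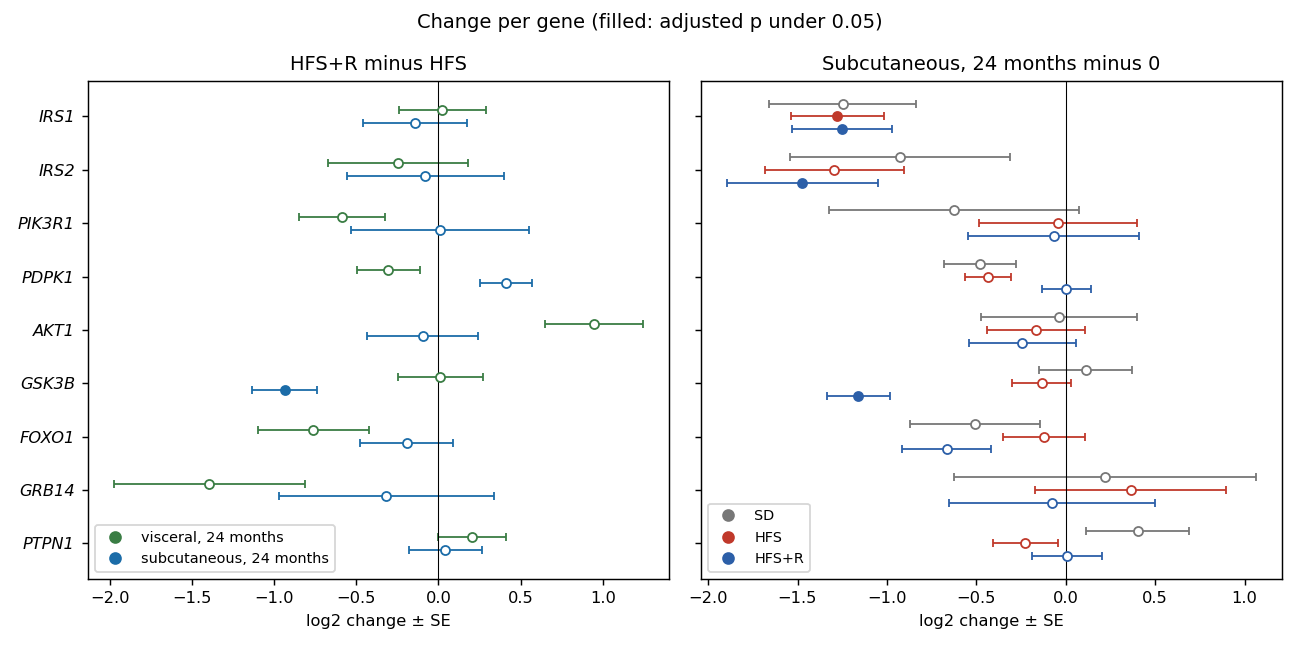
The log2 change of each gene with its standard error is drawn on the horizontal axis, for HFS+R minus HFS in each depot at 24 months (left) and for 24 months minus 0 in subcutaneous fat of each diet (right). Filled points passed, which was GSK3B on the left and IRS1, IRS2 and GSK3B on the right.

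Over the 9 measured members the median HFS+R minus HFS change was -0.10 in subcutaneous fat at 24 months, where the median of all genes was -0.04, and -0.25 in visceral fat, where it was -0.08. Over time the members' medians were -0.24 in the HFS+R group, -0.17 in the HFS group and -0.48 in the SD group, beside -0.05, -0.01 and 0.00 over all genes. Before the diets 0 of 9 members differed between any of the 3 groups, with 0 members at an unadjusted p under 0.05 in limma. Over all genes 0.00824% passed between HFS and SD and between HFS+R and SD at baseline, and 0% between HFS+R and HFS, and the shares at an unadjusted p under 0.05 were 2.93%, 1.99% and 2.37% in that order.

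Members were also compared among the 24 baseline arrays, 1 per animal, within each array set and after removing group means. Of 36 pairs in each of the 2 sets, 3 correlations had a Benjamini-Hochberg adjusted p under 0.05, all in set B, and 0 did by rank. Arrays were permuted freely within a set after the group means were removed. That step does not allow for the means removed, so these p-values tend to be too small and the 3 calls are not secure. IRS1 and IRS2 correlated at Pearson r = 0.773 over 16 arrays (permutation p = 0.00048, adjusted 0.0346) and Spearman rho = 0.641 (permutation p = 0.00917, adjusted 0.139). Without the 2 arrays farthest from the IRS1 median r was 0.511, and over the 8 arrays of set A it was 0.465 (permutation p = 0.244, adjusted 0.428). For IRS2 and FOXO1 the set B r of 0.745 (permutation p = 0.00106, adjusted 0.0382) dropped to 0.363 without 2 arrays, so it rested on those. In set A it was 0.00 (permutation p = 0.993, adjusted 0.993). For AKT1 and PDPK1 the set B r was -0.69 (permutation p = 0.00161, adjusted 0.0386) and -0.481 without 2 arrays. In set A it had the opposite sign at 0.722 (permutation p = 0.0268, adjusted 0.109).

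Among all genes of the subcutaneous fit, those most like GSK3B over the 35 arrays, with group means removed, were PCDHB19P (r = 0.751), NDUFS8 (0.716), SPC24 (0.709), CBX5 (0.688) and TRIL (0.684). None of these 5 passed in the HFS+R minus HFS comparison. For IRS1 the closest was SRSF7 (0.857), for IRS2 GPHN (0.890), for AKT1 BIN1 (0.921) and for PTPN1 ARF1 (0.843). These 35 arrays come from 24 animals and from both array sets. GSK3B and SPC24 correlated at 0.476 in set A, which held both times, and at 0.919 in set B, which held only baseline. The difference between these correlations was not tested.

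Beyond the members, 65 other genes of the pathway were listed by role, of which 50 to 52 were measured in a fit. In both depots 0 of them passed between HFS+R and HFS, between HFS and SD or between HFS+R and SD at 24 months, as tested with limma. At an unadjusted p under 0.05 there were 10 in visceral and 4 in subcutaneous fat between HFS+R and HFS, 1 and 0 between HFS and SD, and 1 and 4 between HFS+R and SD. The shares of all genes were 23.7% and 13.3%, 4.91% and 1.89%, and 9.89% and 10.2% in the same order. The smallest unadjusted p in the HFS+R minus HFS comparison was that of RPS6KB2, a ribosomal S6 kinase, in visceral fat (1.47 ± 0.30, unadjusted p = 0.000506, adjusted p = 0.102 in limma), above background on 4 of 4 HFS+R and 2 of 4 HFS arrays. In subcutaneous fat it was that of PIK3CD, a catalytic subunit (-0.54 ± 0.19, adjusted p = 0.161 in limma).

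Over 24 months in HFS+R subcutaneous fat 4 of 50 listed genes passed upward and 1 downward, beside 6.92% and 4.45% of all genes. PDE3B, the phosphodiesterase through which insulin restrains fat breakdown, changed by -1.35 ± 0.39 (adjusted p = 0.0223 in limma). ENPP1, an inhibitor of the insulin receptor, was higher by 1.06 ± 0.32 (adjusted p = 0.0267 in limma). INPP5D, a phosphatase of the lipid messenger, was higher by 0.85 ± 0.28 (adjusted p = 0.0421 in limma). INPPL1 and BAD also passed upward, but INPPL1 was above background on 1 of 10 baseline arrays and BAD on 0 of 10. At 24 months each was above background on 2 of 4 arrays, so no fold is given. The BAD mean at 24 months, 4.78, lay below the 5.01 to which its baseline arrays were set for a bound. In the HFS group 0 of 50 passed, beside 1.01% of all genes, and 10 had an unadjusted p under 0.05 in limma, beside 14.7%, with PDE3B at -1.27 ± 0.36 (adjusted p = 0.0773 in limma).

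Between depots 5 of 52 listed genes passed upward and 5 downward in visceral fat on HFS, beside 11.2% and 7.52% of all genes, and 10 and 4 on HFS+R, beside 20.1% and 15.8%. ENPP1 differed by -1.71 ± 0.35 on HFS and by -2.40 ± 0.36 on HFS+R. PTPN2, a phosphatase close to PTPN1, was higher by 1.10 ± 0.28 on HFS and by 1.68 ± 0.29 on HFS+R. GRB2, the adaptor that links the receptor to the RAS branch, differed by -1.32 ± 0.33 on HFS. RPS6KB1, a ribosomal S6 kinase downstream of AKT, differed by -0.71 ± 0.22 on HFS and by -1.43 ± 0.24 on HFS+R. The depots' difference in HFS+R minus HFS change passed for 1 of 52, SH2B2, an adaptor of the receptor, beside 2.7% of all genes. SH2B2 was above background on 4 of 4 visceral HFS+R arrays, on 0 of 4 visceral HFS arrays and on 0 of 4 subcutaneous HFS+R arrays. With the visceral HFS arrays set to their lowest detected signal, its mean over the visceral HFS+R arrays was 1.49-fold higher. This bound on the observed means carries no sampling error. The visceral HFS+R minus HFS difference in SH2B2 did not itself pass (adjusted p = 0.102 in limma).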

How the data were processed

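RNA of rhesus fat was hybridized to human bead arrays, and the authors deposited an average intensity per probe and array, unscaled between arrays and exported with GenomeStudio 1.9.0 per the submitters' processing notes. The deposited table also holds a detection p-value per probe, per the file headers. A second deposited table holds a z score, used only as an alternative. Animals were read from the deposited column headers, and groups from sample titles. Of 47323 probes, 92 were empty on subcutaneous arrays and left out.

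The 45 arrays were normalized in 1 step by limma's neqc, under limma version 3.58.1 and R version 4.3.3 (background fitted from detection p-values, offset 16, quantile, log2). Probes were kept where detected (p under 0.05) on no fewer arrays of a group than not, and a gene was read by its kept probe with the highest mean. Visceral arrays gave 11657 genes, subcutaneous arrays 12130 and all arrays 12917. Each fit had a mean per group and used lmFit and eBayes with a trend, over 17 comparisons, with Benjamini-Hochberg adjustment across every gene tested. The number of arrays limits the precision. For bounds, a probe not above background on any array of a group was set to the lowest detected signal of each array or its own, whichever was higher. The tests were tried on simulated data.

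The headers hold 25 names for 24 animals, kept as spelled. The labels do not say that replicate numbers pair arrays.

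The 10 members and the lists were chosen with earlier results of these data known. All members could be named, other pathway genes if they passed or were among the 4 with the smallest p in a comparison, and the 5 genes most like a passing member. Alternatives covered normalization, scaling, filter, probe choice, array set, animal and replicate blocks, weights, probes detected and threshold. Each array was also left out in turn, but no array of the baseline HFS and HFS+R groups was left out in this way. The fit on set A with animal as a fixed term was added after seeing the data. Sequences of probes and promoters were not used here.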

Additional observations from a re-analysis of the deposited data

Results flagged for a closer look

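Of 63 sets of 4 to 10 arrays (a member in a group), 12 held an array whose gap to the nearest other array passed Dixon's 95% critical value for the group's range. Chance alone flags about 1 in 20 such sets. In subcutaneous fat at baseline, an SD array (replicate 4) had IRS1 at 9.02, an HFS array (replicate 4) had GSK3B at 10.11, and an HFS+R array (replicate 9) had GSK3B at 10.32 and PDPK1 at 8.78. A further HFS+R baseline array (replicate 7) had FOXO1 at 9.47. These 4 arrays belong to set B. At 24 months in subcutaneous fat, HFS+R replicate 4 had IRS2 at 7.51 and HFS replicate 1 had PIK3R1 at 10.30. HFS+R replicate 4 also had the lowest GSK3B of its group, and the GSK3B value without it stands in the report.

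In visceral fat, IRS1 was at 7.07 in HFS replicate 3 and at 6.78 in HFS+R replicate 3, PIK3R1 at 9.60 in HFS replicate 4, PDPK1 at 9.73 in HFS replicate 2 and GRB14 at 7.09 in HFS+R replicate 1. The GRB14 array was the HFS+R array nearest to the HFS group.

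The change in GSK3B over 24 months differed between the HFS+R and HFS groups by a test of the difference itself, at -1.03 (adjusted p = 0.0278 in limma). That call was lost in 6 of 18 alternative settings, with median scaling giving -0.12 (adjusted p = 0.846 in limma). It was also lost in 5 of 9 fits that left out an array of 24 months, and no baseline array was left out.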

How the results depend on the processing

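Counts are of members that passed, among 9. With HFS+R against HFS in subcutaneous fat at 24 months the count of 1 was 0 with median scaling, with only the groups compared and with probes detected as a covariate, and 0 to 1 over arrays left out. With HFS+R against SD the 1 was 0 with array weights, median scaling, z scores, no filter, only the groups compared, probes detected and quantile normalization without background correction, and 0 to 1 over arrays left out. In visceral HFS+R against HFS the 0 was 2 with array weights and 1 with only the groups compared. Over time in the HFS group the 1 was 3 at an adjusted p under 0.1, with array weights and with median scaling, 2 with animal as a random block or the array set as a term, and 0 with animal as a fixed term and within set A with or without it. Leaving out arrays of 24 months gave 0 to 1. In the HFS+R group the 3 was 0 with median scaling and 1 with probes detected. For the difference between these changes the 1 was 0 with animal as a fixed term, median scaling, z scores, probes detected and within set A with or without animal, and 0 to 1 over arrays left out. Between depots on HFS the 1 was 2 at an adjusted p under 0.1, with weights, z scores, every probe, probes detected and the replicate block, 4 with only the groups compared and 0 with median scaling. On HFS+R the 2 was 5 with weights, 0 with median scaling, 1 with animal as a random block, z scores, no filter and probes detected, and 0 to 2 over arrays left out. The depots' difference in resveratrol effect went from 0 to 2 at an adjusted p under 0.1, 3 with weights and 0 to 2 over arrays left out. Causes were not tested. Of 11 same-numbered pairs over time 9 were 1 animal and residuals correlated at -0.332 to 0.481, with 8 above 0.1, so the numbers were not taken as a pairing. With the replicate block the changes over time in the HFS+R group were -1.16 (adjusted p = 0.000439 in limma) for GSK3B and -1.25 (adjusted p = 0.0957 in limma) for IRS2. Of the member changes that passed, 0 reversed under the settings run, where the setting with every probe took a member's probe with the smallest p. By its probe ILMN_1748661 AKT1 had the opposite sign between depots on HFS+R, at -0.87 (adjusted p = 0.015 in limma).

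Median scaling moved the median of all genes to 0.37 (HFS+R minus HFS), 0.39 (HFS+R minus SD), 0.55 (difference of changes), -0.32 (HFS over time) and 0.13 (HFS+R over time). Relative to it GSK3B stood at -0.63, -0.70, -0.67 and, in HFS+R over time, at -1.02, and IRS1 at -1.43 in the HFS group.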
